A study of Mus musculus with 6 samples.

Results

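The expression of 10 genes known from neurons or from their synapses, Uchl1, Thy1, Lynx1, Tubb2b, Tubb3, Dpysl3, Arc, Camk2b, Insm1 and Chrna1, was examined in TC-1/A9 tumour cells. The genes were listed by symbol with earlier results of the same arrays in view, so that the treated against untreated contrast had itself chosen them and their values are given as a description with no test. A named probe was present for 9 of the 10 genes, out of 9192 genes measured in all, and these 9 genes were read by 14 probes. Tubb3, the beta tubulin most often used to mark neurons, had no named probe and its level was not analysed here.

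TC-1/A9 cells came from tumours that TC-1 cells had formed in immunised mice, and TC-1 had been made from C57BL/6 lung cells transfected with the HPV16 E6/E7 oncogenes and an activated human Ha-ras oncogene. Both groups were of this line, which is low in MHC class I when untreated, and each had 3 arrays of independently prepared samples. DAC/TSA-treated cells received 3 μM 5-2´-deoxyazacytidine (DAC), an inhibitor of DNA methyltransferases, during 48 h and then 30 ng/ml Trichostatin A (TSA), an inhibitor of histone deacetylases, during 24 h. In the treated cultures the DAC medium was renewed after the first 24 h. Untreated cells received neither agent, so that the share of each agent in a difference cannot be told apart. In the total RNA of a culture, fewer expressing cells and less RNA per cell cannot be told apart.

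Neurons use many genes that most other cells hold at a low level, and DNA methylation, histone deacetylation and the repressor REST take part in that restraint. The genes examined belong to different layers of neuronal life: protein turnover (Uchl1), the cell surface (Thy1, Lynx1), the microtubule cytoskeleton (Tubb2b, Tubb3, Dpysl3), the response to synaptic activity (Arc, Camk2b), the making of neuroendocrine cells (Insm1) and transmission at the nerve and muscle contact (Chrna1). Several are not restricted to neurons. Thy1 is also carried by T cells and fibroblasts, and Chrna1 belongs to the acetylcholine receptor of skeletal muscle.

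Promoter sequences were taken from RefSeq (build GRCm38.p6), which listed a window from 250 bases before to 50 bases after the start for 4 of the genes, Uchl1, Tubb3, Camk2b and Chrna1. The methyltransferases that DAC inhibits act mostly on cytosine before guanine, so every CpG is in capitals. The windows of Uchl1 (chr5:66675871-66676170, plus strand), Camk2b (chr11:6065699-6065998, minus strand) and Chrna1 (chr2:73580289-73580588, minus strand) are shown, because these genes include the strongest rise, a fall to below detection and the strongest fall of the group.
Uchl1: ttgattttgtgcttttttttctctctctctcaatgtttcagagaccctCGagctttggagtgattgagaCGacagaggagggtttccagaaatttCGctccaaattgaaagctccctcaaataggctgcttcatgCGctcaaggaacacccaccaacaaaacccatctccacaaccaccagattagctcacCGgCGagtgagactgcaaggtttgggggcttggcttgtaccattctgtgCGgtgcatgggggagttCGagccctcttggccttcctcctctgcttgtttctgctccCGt
Camk2b: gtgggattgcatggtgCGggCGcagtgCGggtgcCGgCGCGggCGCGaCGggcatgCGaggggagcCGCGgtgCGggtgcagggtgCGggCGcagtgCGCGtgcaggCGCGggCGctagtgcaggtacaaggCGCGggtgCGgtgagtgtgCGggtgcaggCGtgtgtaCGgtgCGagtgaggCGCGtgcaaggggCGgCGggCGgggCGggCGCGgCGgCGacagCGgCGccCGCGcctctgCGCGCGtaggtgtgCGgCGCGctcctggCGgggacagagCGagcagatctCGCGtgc
Chrna1: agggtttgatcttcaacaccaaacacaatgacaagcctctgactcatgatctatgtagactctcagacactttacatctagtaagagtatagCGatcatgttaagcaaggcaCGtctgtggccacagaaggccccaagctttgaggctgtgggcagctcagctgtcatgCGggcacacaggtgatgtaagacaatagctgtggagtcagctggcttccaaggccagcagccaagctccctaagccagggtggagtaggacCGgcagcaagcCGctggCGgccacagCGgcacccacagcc

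The Uchl1 window held 9 CpGs and a GC content of 50.7%, and 45.8% of the 32851 windows held at least as many CpGs. The Camk2b window held 51 CpGs at 77.3% GC, a number reached by 0.715% of all windows. The Chrna1 window held 7 CpGs, which is also the median of all windows (quartiles 3 and 20), at 54.7% GC. The gene with the strongest rise and the gene with the strongest fall therefore had windows of much the same CpG number, and Camk2b stood far above both. Tubb3, the gene without a probe, had 26 CpGs at 67.3% GC.

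Short motifs were counted on both strands. CANNTG, the E-box letters, occurred 3 times in the Chrna1 window and in none of the other windows of the group, and 72.3% of all windows held it. GGGCGG, the GC-box letters, occurred 3 times in the Camk2b window and 2 times in that of Tubb3, against a share of 35.7% of all windows. TATAA occurred in the Tubb3 window only, against 24.9% of all windows. Its site there, TTATAA, reads the same on both strands and was therefore counted 2 times. A match of letters is a description, and DNA methylation was not measured on these arrays.

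**Figure D1:**
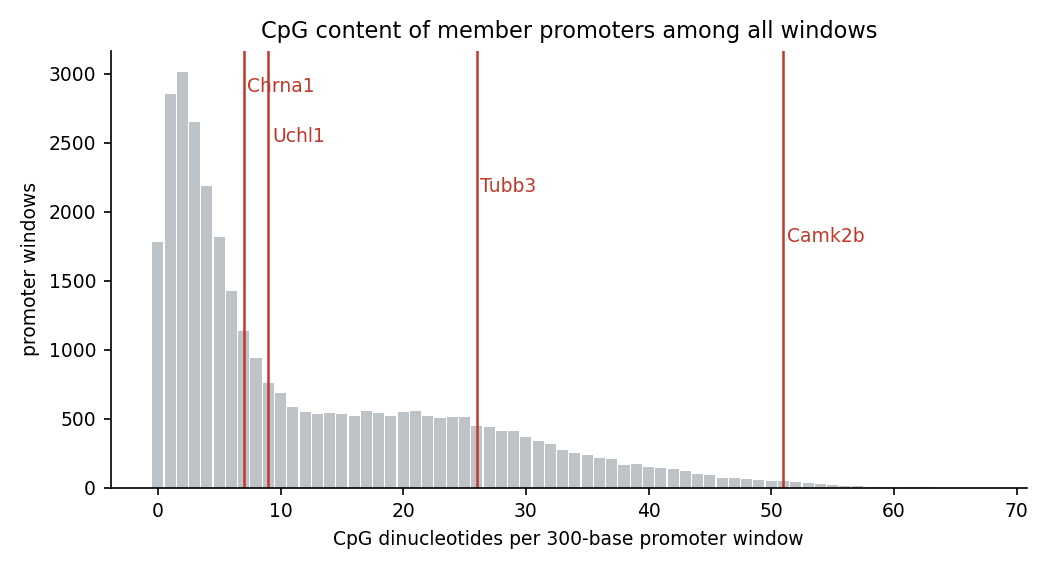
Histogram of the number of CpGs (x axis) in the 300-base promoter windows of RefSeq, with the number of windows on the y axis; vertical lines mark the 4 genes with a window. Chrna1 (7 CpGs) and Uchl1 (9 CpGs) lie close to the median of 7, and Camk2b (51 CpGs) lies far to the right.

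Depth on an array is set by signal over background. At a detection p of at most 0.01, between 15008 and 15783 probes were detected on the DAC/TSA arrays and between 14704 and 14802 on the untreated arrays. The lowest detected signal lay at a log2 of 5.73 to 5.80 on the DAC/TSA arrays and 5.83 to 5.84 on the untreated arrays, and a value near this floor is only a bound. Arrays of a group correlated with r of at least 0.992. A change was common: at a limma adjusted p under 0.01 the treated cells had 22.5% of all 9192 genes higher and 21.4% lower.

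Of the 9 measured genes, 5 were higher (Uchl1, Thy1, Lynx1, Tubb2b and Arc) and 4 were lower (Dpysl3, Camk2b, Insm1 and Chrna1) in DAC/TSA-treated cells. On all 14 probes the DAC/TSA and the untreated arrays did not overlap, which was also the case for 59.0% of all probes and 63.9% of all genes by their brightest probe. By probe, 9 were higher and 5 lower, beside 19.3% higher and 19.3% lower of all kept probes. Lynx1 and Arc were undetected on every untreated array, a pattern of 6.23% of all genes. Camk2b and Insm1 were undetected on every DAC/TSA array, a pattern of 2.02% of all genes. As the genes were chosen on this contrast, nothing is read from these shares.

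**Figure D2:**
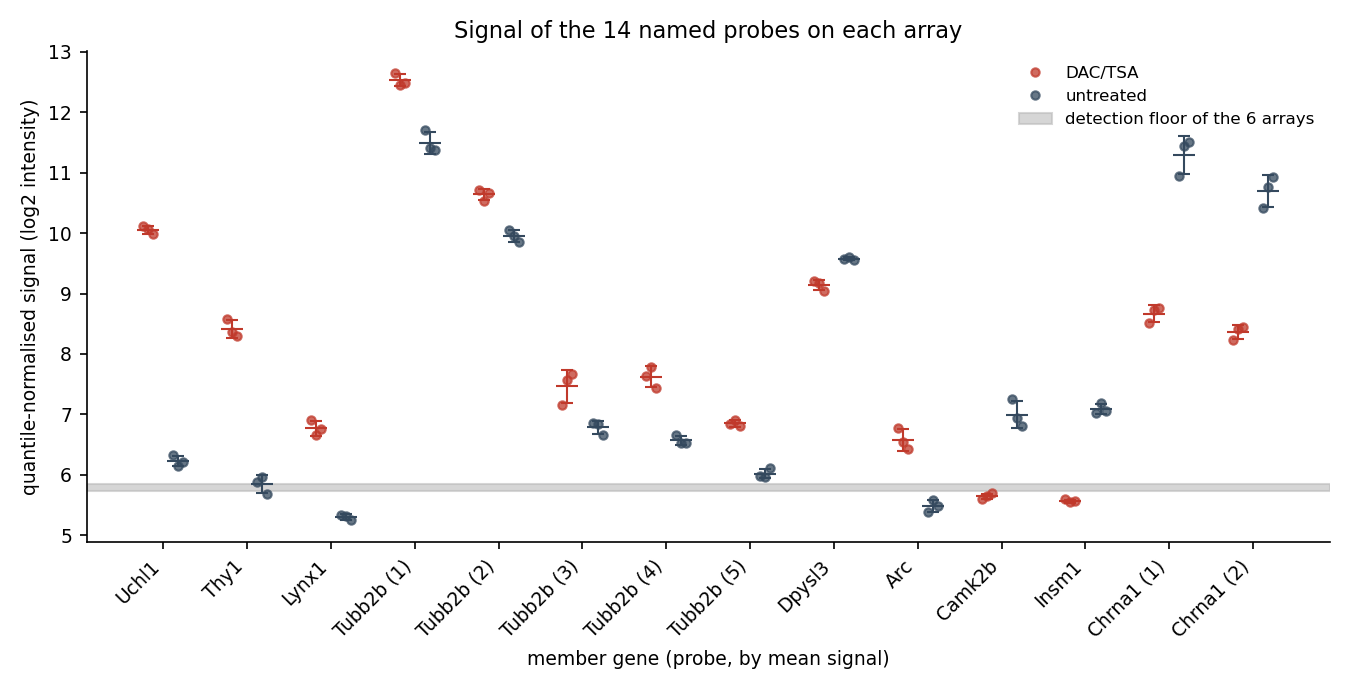
Quantile-normalised log2 signal (y axis) of each of the 14 probes on each array, DAC/TSA left of untreated, with the group mean ± SD as bars (3 arrays a group) and the detection floor as a grey band; the number in brackets orders the probes of a gene by their mean signal. The Uchl1 points lie at 9.98 to 10.11 in DAC/TSA-treated and 6.15 to 6.32 in untreated cells, and on no probe do the groups overlap.

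Uchl1 encodes a deubiquitinating enzyme that is among the most abundant proteins of neurons. Its deposited intensities were 1015, 1271 and 1032 on DAC/TSA arrays 1, 2 and 3, against 68.2, 68.8 and 75.8 on untreated arrays 1, 2 and 3. After normalisation the log2 signals were 10.11, 10.07 and 9.98 in DAC/TSA-treated cells and 6.32, 6.15 and 6.21 in untreated cells. Every treated array was far above every untreated array, and the spread within either group was small beside the gap of 3.66 between them. The difference was 3.82 ± 0.08 on the log2 scale (SE, n = 3 arrays a group), a 14.2-fold higher signal (95% interval 12.4 to 16.1). Uchl1 was faintly detected in untreated cells, its detection p being 0.0021 or less on each array, and had rank 4 among all genes by the size of its rise.

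All 3 other measured ubiquitin C-terminal hydrolases passed the test, 2 as higher and 1 as lower, beside 22.5% and 21.4% of all genes. Uchl3, the closest relative of Uchl1, was 2.08-fold higher (limma adjusted p = 9.8e-06). Uchl5, which works at the proteasome, was 1.59-fold higher (adjusted p = 0.00198), a call lost with median scaling (adjusted p = 0.0561) and without DAC/TSA array 2 (0.0116) or 3 (0.0106). Bap1, a nuclear hydrolase acting on histones, was 1.31-fold lower (adjusted p = 0.00592), a call lost with median scaling (adjusted p = 0.121), with neqc (0.0118) and without any array except untreated array 3 (0.0118 to 0.0313).

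By the distance between the 6 array values, each centred on its own mean, the genes whose pattern was most like that of Uchl1 were Wfdc2 (0.30), Cdkn1c (0.30) and Fbxo2 (0.37). Wfdc2 encodes a secreted epithelial protein, Cdkn1c an inhibitor of cyclin-dependent kinases and Fbxo2 a ubiquitin ligase subunit enriched in neurons. Wfdc2 was undetected in untreated cells and at least 13.5-fold higher. The log2 differences of Cdkn1c and Fbxo2, which were detected on all arrays, were 3.62 for Cdkn1c and 3.55 for Fbxo2. This likeness over 6 arrays mostly restates a large rise with little spread within each group.

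Thy1, a GPI-anchored glycoprotein of the neuronal surface and also of T cells and fibroblasts, had log2 signals of 8.57, 8.37 and 8.29 in DAC/TSA-treated cells and 5.88, 5.97 and 5.68 in untreated cells. The untreated arrays lay at the detection floor, and the gene was detected on 2 of the 3 (detection p of 0.0053, 0.0043 and 0.035). All treated arrays were clearly above it. The difference was 2.56 ± 0.11 (SE, n = 3 arrays a group), or 5.92-fold (95% interval 5.02 to 6.97).

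Among 8 other measured genes of neural adhesion and guidance, 1 passed as higher and 3 as lower, beside 22.5% and 21.4% of all genes. Nrcam, an adhesion molecule of axons, was 2.60-fold higher (adjusted p = 3.25e-06) and was detected on 1 of the 3 untreated arrays. Sema3a, a secreted repellent of axons, was 4.05-fold lower (adjusted p = 2.63e-07). Nrn1, which promotes the outgrowth of neurites, was 1.45-fold lower (adjusted p = 0.00401), a call lost with median scaling (adjusted p = 0.163), with neqc (0.0103) and without DAC/TSA array 1 (0.0144) or 3 (0.0147) or untreated array 2 (0.0178) or 3 (0.019). Nrp1, a receptor of semaphorins and the remaining lower gene, lost its call in these settings too (adjusted p = 0.217 with median scaling and 0.0186 with neqc). Of 11 T cell markers 1 was measured, Cd8b1, which was 1.45-fold lower, and 5 of 8 fibroblast markers were measured, of which Col1a1 and Col3a1 were lower and none was higher. With median scaling these calls were lost (adjusted p of 0.0689 for Cd8b1, 0.0605 for Col1a1 and 0.0103 for Col3a1). The summed signal of the fibroblast markers was 883 to 1020 in DAC/TSA-treated and 944 to 1134 in untreated cells and overlapped. The part of either cell type in the Thy1 signal was not tested.

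Lynx1 encodes a small GPI-anchored protein of the Ly6 family that binds nicotinic acetylcholine receptors and dampens their response. Its log2 signals were 6.90, 6.66 and 6.75 in DAC/TSA-treated cells and 5.34, 5.31 and 5.25 in untreated cells. The gene was detected on every treated array and on no untreated array, where the detection p was 0.45, 0.53 and 0.67. The measured ratio of 2.77 therefore stands against background, and the signal was at least 1.92-fold higher when the untreated arrays were set to the lowest detected signal.

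Of 7 other measured Ly6 family genes, 4 passed as higher and 1 as lower, beside 22.5% and 21.4% of all genes. Among the 5 detected in both groups 2 were higher and 1 lower, beside 20.0% and 21.9% of all genes detected in both. The lower gene, Ly6e, lost its call with median scaling (adjusted p = 0.226) and with neqc (0.02). Lypd1, a brain-enriched binding partner of nicotinic receptors, was 2.31-fold higher (adjusted p = 3.51e-06). Lypd3, a surface protein of keratinocytes and some carcinomas, was undetected in untreated cells and at least 1.51-fold higher (adjusted p = 1e-05). Ly6f was also undetected in untreated cells and at least 1.15-fold higher. Lynx1 and Arc lie on the same chromosome with 9 annotated genes between them (RefSeq, GRCm38.p6), 6 of them protein coding, and only Them6 of these 9 was measured here.

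Tubb2b, a beta tubulin strongly used by developing neurons, was read by more probes than any other gene of the group. On its brightest probe the log2 signals were 12.65, 12.46 and 12.49 in DAC/TSA-treated cells and 11.71, 11.41 and 11.37 in untreated cells. The treated arrays were all above the untreated ones, and array 1 was the highest of its group in both. The difference was 1.04 ± 0.11 (SE, n = 3 arrays a group), a 2.05-fold higher signal (95% interval 1.74 to 2.42).

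All 5 Tubb2b probes were higher, by 0.68 to 1.06 on the log2 scale (1.60- to 2.08-fold), and all were detected on every array. The groups came closest on the probe with the third-highest mean signal, with 7.16, 7.56 and 7.67 in DAC/TSA-treated cells and 6.85, 6.84 and 6.66 in untreated cells and a gap of 0.30. With median scaling the difference on this probe was 0.78 and no longer past the threshold. The probe of the next signal had 7.64, 7.79 and 7.44 in DAC/TSA-treated cells and 6.66, 6.52 and 6.53 in untreated cells, and the dimmest had 6.84, 6.91 and 6.80 in DAC/TSA-treated cells and 5.98, 5.97 and 6.11 in untreated cells. The probe second in signal had 10.71, 10.54 and 10.67 in DAC/TSA-treated cells and 10.06, 9.96 and 9.86 in untreated cells. Bright and dim probes thus kept the same order of the groups, and array 1 was not the highest on each of them. The mean over the 5 probes gave a difference of 0.86. Tubb2a, whose sequence is nearly identical, had no named probe among those measured, and cross-hybridisation between these copies was not tested.

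Of 4 other measured beta tubulins, 1 was higher and 3 did not pass, beside 22.5% higher and 21.4% lower of all genes. Tubb4b, which is found in many tissues and in cilia, was 1.29-fold higher (adjusted p = 0.00362), a call lost with median scaling (adjusted p = 0.0483) and without DAC/TSA array 1 (0.0143) or 2 (0.0117) or untreated array 2 (0.0168). Tubb5, the main beta tubulin of dividing cells, had a log2 difference of -0.07, and Tubb6 had one of -0.47, which was called lower only with the replicate number as a block (adjusted p = 0.000128). Of 5 measured alpha tubulins, Tuba3b was undetected in untreated cells and at least 4-fold higher (adjusted p = 6.85e-08), and Tuba3a was 2.91-fold higher (adjusted p = 1.05e-06). These genes of testis type are near-identical copies, so their probes cannot be taken as separate, and the other 3 alpha tubulins did not pass.

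Dpysl3 encodes a collapsin response mediator protein (CRMP) that binds tubulin in growing axons. Its log2 signals were 9.21, 9.18 and 9.05 in DAC/TSA-treated cells and 9.57, 9.60 and 9.56 in untreated cells. The gene was well detected on all 6 arrays, and all treated arrays were lower, with a gap of 0.35. The difference of -0.43 ± 0.08 (SE, n = 3 arrays a group) was the smallest of the 9 genes and gave a 1.35-fold lower signal (95% interval 1.19 to 1.53). With median scaling the difference was -0.37 and no longer past the threshold that the lower count used.

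The relatives Crmp1 and Dpysl2 differed in direction. Crmp1 was undetected in untreated cells and at least 1.68-fold higher (adjusted p = 1.29e-05). Dpysl2, which guides axon growth and branching, was 1.30-fold lower (adjusted p = 0.00308), a call lost with median scaling (adjusted p = 0.154) and without DAC/TSA array 1 (0.0101) or 2 (0.0167) or untreated array 3 (0.0172).

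In a list of 12 measured genes of the neuronal cytoskeleton, 6 passed the limma threshold as higher and 0 as lower, beside 22.5% and 21.4% of all genes. At an unadjusted p under 0.05, 7 were higher and 0 lower, beside 32.4% and 30.3% of all genes. Of the 6 that passed the limma threshold, 4 were undetected in untreated cells. Prph, an intermediate filament of peripheral neurons, was at least 2.77-fold higher (adjusted p = 6.82e-08). Stmn4 and Stmn2, neuronal stathmins that bind tubulin, were at least 1.81-fold (adjusted p = 1.06e-06) and 1.54-fold higher (adjusted p = 2.80e-06). Gap43 (-0.02) and Map2 (0.25), both markers of neurites, did not pass, and Map2 was called higher with the replicate block (adjusted p = 0.00732). Among the 8 detected in both groups, 2 were higher and the median difference was 0.05, against -0.01 over all genes detected in both. These 2 were Map1b and Nes, and each lost its call with median scaling (adjusted p = 0.0472 and 0.0582). The call of Nes was also lost without DAC/TSA array 2 (0.0122) or 3 (0.0118).

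Arc, a cytoskeletal protein made at synapses after strong activity, had log2 signals of 6.77, 6.54 and 6.42 in DAC/TSA-treated cells and 5.38, 5.58 and 5.49 in untreated cells. It was detected on every treated array and on no untreated array (detection p of 0.36, 0.078 and 0.15). The measured ratio was 2.13, and the signal was at least 1.67-fold higher over the detection floor.

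Neurons induce Arc together with a set of other genes that respond to activity. Of the 11 measured, 4 passed the limma threshold as lower and 0 as higher, beside 21.4% and 22.5% of all genes. At an unadjusted p under 0.05, 6 were lower and 1 higher, beside 30.3% and 32.4% of all genes. With the replicate number as a block Homer1 was also higher (adjusted p = 0.00733) and Egr2 (0.00281) and Nptx1 (0.00359) were also lower. Nptx1 was detected on 2 of the 3 untreated arrays and on no DAC/TSA array. Egr3 was 2.57-fold lower (adjusted p = 3.32e-06) and Fosb 2.43-fold lower (adjusted p = 8.07e-05), and the call of Fosb was lost with median scaling (adjusted p = 0.0106). Junb was 1.36-fold lower (adjusted p = 0.00197), a call lost with median scaling (adjusted p = 0.0936) and without DAC/TSA array 2 (0.0123). Fos (-0.04) and Egr1 (-0.09), the transcription factors most often read as a sign of activity, did not pass. With median scaling 1 of the 11 genes was lower.

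Camk2b encodes the beta subunit of the calcium/calmodulin-dependent kinase that strengthens synapses, and it also binds actin. Its log2 signals were 5.60, 5.64 and 5.69 in DAC/TSA-treated cells and 7.25, 6.94 and 6.80 in untreated cells. No treated array detected it (detection p of 0.067, 0.028 and 0.017), whereas every untreated array did. The measured difference was -1.35 ± 0.11 (SE, n = 3 arrays a group), and the signal was at least 2.35-fold lower with the treated arrays at the detection floor. This was the gene whose promoter window held 51 CpGs.

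The sister subunits Camk2d (-0.25) and Camk2g (-0.08), which most tissues use, did not pass. The inhibitors of the kinase moved in opposite directions, with Camk2n1 1.72-fold lower (adjusted p = 2.24e-05) and Camk2n2 1.62-fold higher (adjusted p = 4.59e-05). Of 7 other measured calmodulin kinase genes, 1 was thus higher and 1 lower, beside 22.5% and 21.4% of all genes. The other 5 did not pass, and with the replicate block Camk1 among them was lower (adjusted p = 0.00624).

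Insm1, a zinc finger repressor needed for the differentiation of neuroendocrine cells and used by their tumours, had log2 signals of 5.59, 5.54 and 5.56 in DAC/TSA-treated cells and 7.02, 7.19 and 7.06 in untreated cells. Its values were tightly grouped on both sides, and no treated array detected it (detection p of 0.068, 0.076 and 0.065). The measured difference was -1.53 ± 0.08 (SE, n = 3 arrays a group), and the signal was at least 2.51-fold lower.

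The neuroendocrine list held 17 genes with Insm1, and 4 were measured. The 3 others measured all passed, 2 higher and 1 lower, beside 22.5% and 21.4% of all genes. Of the 2 detected in both groups 1 was higher and 1 lower. Eno2, the neuronal enolase, was 1.67-fold higher (adjusted p = 2.98e-05), and Syp, a membrane protein of synaptic vesicles, was undetected in untreated cells and at least 1.35-fold higher (adjusted p = 0.000235). Cpe, which processes peptide hormones, was 1.61-fold lower (adjusted p = 0.000173).

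Chrna1 encodes the alpha subunit of the muscle acetylcholine receptor, which carries most of the transmitter binding site. On the brighter of its probes the log2 signals were 8.51, 8.73 and 8.76 in DAC/TSA-treated cells and 10.94, 11.45 and 11.51 in untreated cells. The gene was well detected on all 6 arrays, the treated arrays were all lower, and array 1 was the lowest of its group in both. The difference was -2.64 ± 0.14 (SE, n = 3 arrays a group), a 6.22-fold lower signal (95% interval 4.98 to 7.75), with rank 6 among all genes by the size of the fall.

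The dimmer Chrna1 probe had 8.23, 8.42 and 8.44 in DAC/TSA-treated cells and 10.41, 10.76 and 10.93 in untreated cells. It showed the same low array 1 in each group and no overlap, with a 5.05-fold lower signal (95% interval 4.14 to 6.15). Array 1 thus deviated alike in both groups, and without untreated array 1 the difference on the brighter probe was -2.80.

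Other subunits of the receptor were measured for Chrnb1 and Chrne. Chrnb1, the beta subunit of muscle, had a log2 difference of -0.09 and was detected on all arrays, and Chrne, the adult epsilon subunit, had one of 0.07, and neither passed. Of 5 measured genes of the neuromuscular junction, Etv5, a transcription factor of the synaptic muscle nuclei, was 1.62-fold lower (adjusted p = 3.15e-05) and Nrg1, a nerve-derived growth factor, was 1.25-fold lower (adjusted p = 0.00463). Both calls were lost with median scaling (adjusted p = 0.0194 and 0.247), and that of Nrg1 also without any 1 of DAC/TSA arrays 2 and 3 and untreated arrays 2 and 3. Rapsn, Agrn and Lrp4, which cluster the receptor, did not pass.

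Skeletal muscle markers were measured for 4 of 14 genes and went both ways. Des was at least 1.55-fold higher (adjusted p = 2.1e-05), whereas Acta1 was undetected in DAC/TSA-treated cells and at least 1.95-fold lower (adjusted p = 3.93e-06). The summed signal of the 4 markers was 315 to 355 in DAC/TSA-treated and 361 to 385 in untreated cells, and no probe of the muscle regulators Myod1, Myog, Myf5 or Myf6 was among those measured. The genes most like Chrna1 over the 6 arrays were Adcy8 (distance 0.25), Ankrd37 (0.42) and Prl2c2 (0.45). Adcy8, a calcium-stimulated adenylyl cyclase of the brain, had log2 signals of 5.51, 5.71 and 5.95 in DAC/TSA-treated cells and 8.11, 8.54 and 8.41 in untreated cells, and was undetected on DAC/TSA arrays 1 and 2 (detection p of 0.12 and 0.012), where the values are background.

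In 15 alternative settings the direction of none of the 9 genes reversed. Background correction with neqc gave larger differences for the genes near the floor, 2.12 for Lynx1, 1.69 for Arc, 3.27 for Thy1, -2.0 for Camk2b and -2.25 for Insm1, and also for Uchl1, at 4.37. For the genes well above the floor, Tubb2b (1.04 on its brightest probe), Dpysl3 (-0.45) and Chrna1 (-2.71), it changed little, whereas the dimmest Tubb2b probe moved to 1.18, against 0.83. Normexp with an offset of 50 gave smaller differences for the genes near the floor than quantile normalisation alone. They were 1.13 for Lynx1, 0.84 for Arc, 2.22 for Thy1, -1.08 for Camk2b and -1.22 for Insm1. Uchl1 was also smaller, at 3.52.

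**Figure D3:**
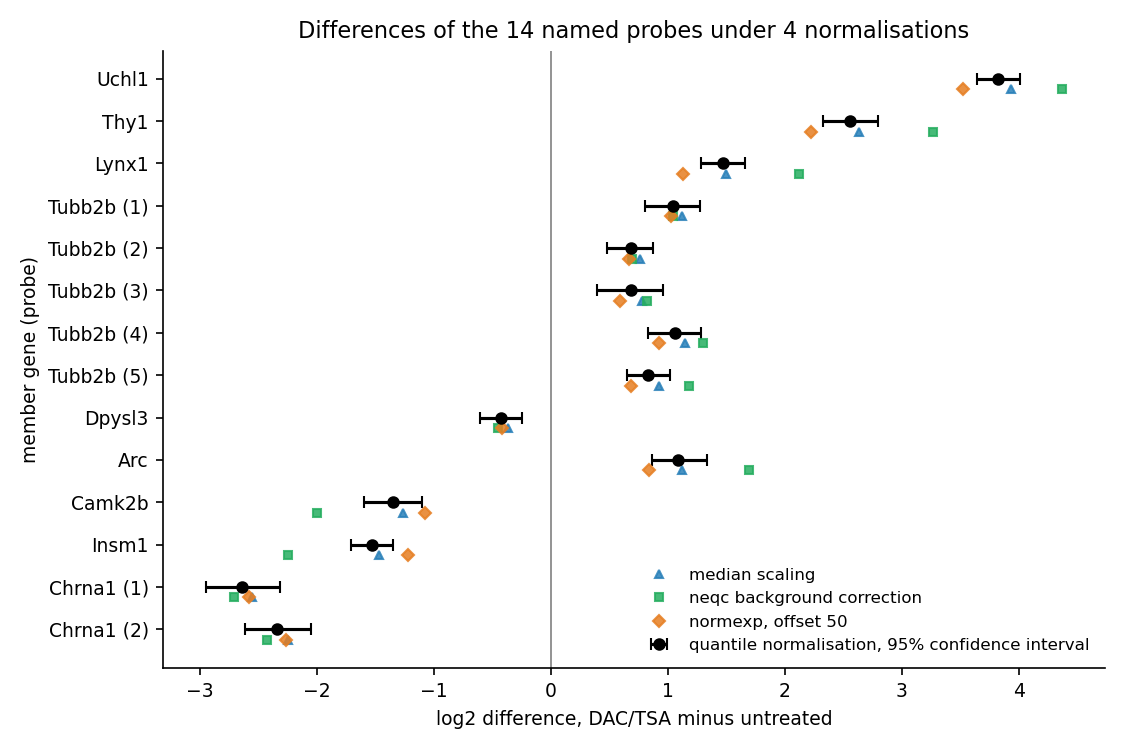
Log2 difference, DAC/TSA minus untreated (x axis), of the 14 probes of the 9 genes (rows) with quantile (bar: 95% confidence interval), median, neqc and normexp normalisation as separate symbols (3 arrays a group). Every symbol of a probe stays on its side of 0, and Uchl1 spans 3.52 to 4.37.

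Beyond the listed genes, 15 wider lists of neuronal families and processes held 98 other measured genes of 226 listed. Of these, 26 (26.5%) passed as higher, 21 (21.4%) as lower and 51 in neither direction, and their median difference was -0.04 against 0.01 over all genes. With median scaling 21 were higher and 8 lower, so that the share of called genes that were higher was 72.4%, against 55.3% in the values above. Over all genes that share was 61.1% with median scaling, against 51.3%. Of the 98 genes 16 were detected only in DAC/TSA-treated cells and 3 only in untreated cells, beside 573 (6.23%) and 186 (2.02%) of all 9192 genes. Among the 79 detected in both groups 14 (17.7%) were higher and 20 (25.3%) lower, beside 20.0% and 21.9% of all genes detected in both. The REST repressor complex, which is among the 15 lists, gave 12 of these 79 genes, of which 0 were higher and 5 lower.

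**Figure D4:**
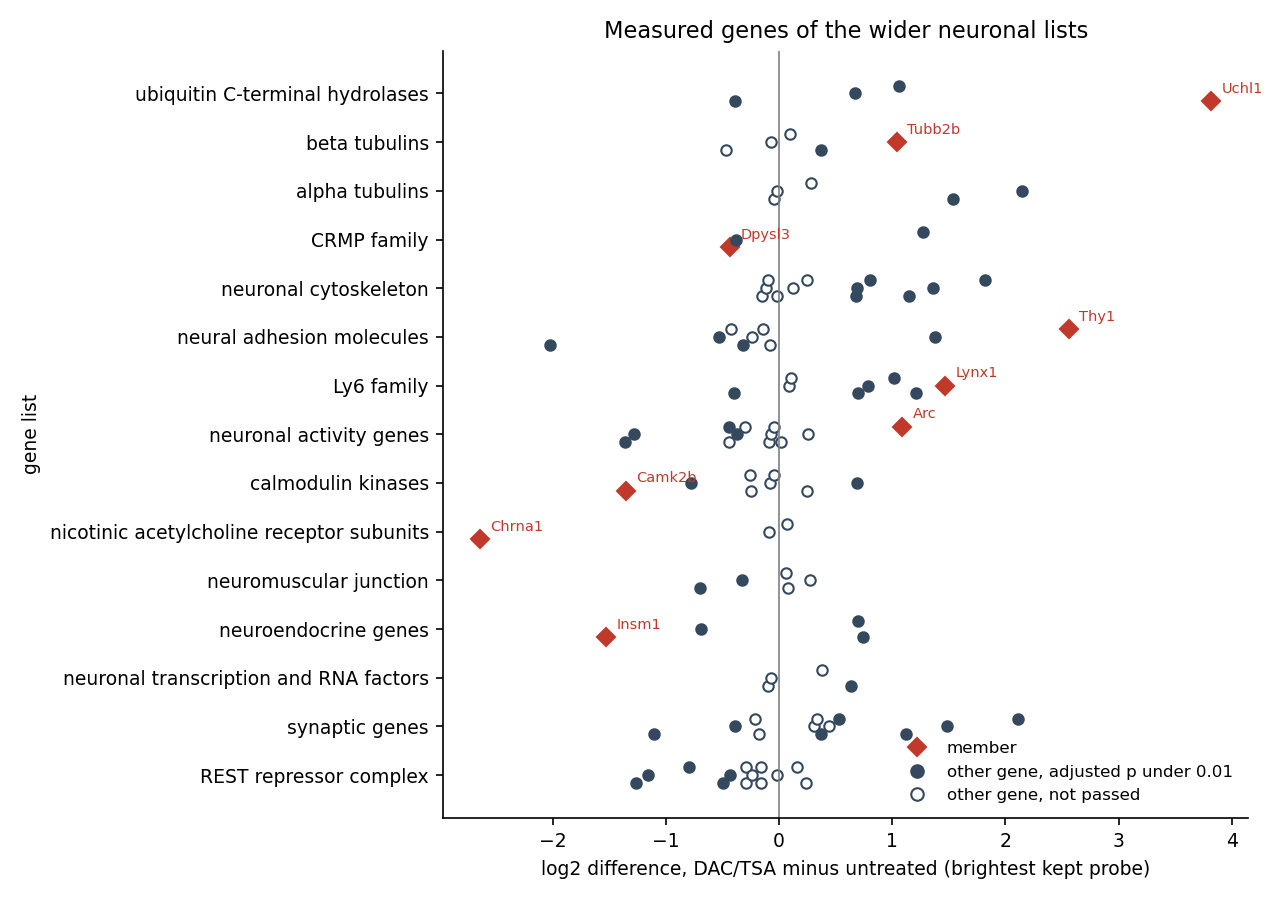
Log2 difference, DAC/TSA minus untreated (x axis), of every measured gene of the 15 lists (rows); diamonds are the 9 genes described here, filled circles other genes with a limma adjusted p under 0.01 and open circles other genes that did not pass (3 arrays a group, brightest kept probe). Uchl1 (3.82) is the farthest right and Chrna1 (-2.64) the farthest left.

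Of 12 measured synaptic genes 5 passed as higher and 2 as lower, beside 22.5% and 21.4% of all genes. With the replicate block 8 were higher, and with median scaling 4 were higher and 1 lower. Among the 7 detected in both groups, 2 were higher and 1 lower. Syn1, which tethers synaptic vesicles, was 4.31-fold higher (adjusted p = 5.2e-08), Sncg, a synuclein of peripheral neurons, was 2.79-fold higher (adjusted p = 3.26e-06), and Slc17a6, a vesicular glutamate transporter, was undetected in untreated cells and at least 1.76-fold higher (adjusted p = 8.94e-06). Cplx1, a regulator of vesicle release, was undetected in DAC/TSA-treated cells and at least 1.71-fold lower (adjusted p = 9.35e-06). Of 4 measured neuronal transcription and RNA factors, Elavl2, an RNA-binding protein of neurons, was 1.56-fold higher (adjusted p = 0.000239), and with the replicate block Isl1 was higher as well (adjusted p = 0.000719).

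The complex that REST recruits to silence neuronal genes was read through 13 measured partners, without Rest itself. Of these, 5 passed the limma threshold as lower and 0 as higher, beside 21.4% and 22.5% of all genes. At an unadjusted p under 0.05 the counts were 8 and 0, beside 30.3% and 32.4% of all genes. With the replicate block 7 were lower. Ctdsp2 and Ctdspl, small phosphatases of the complex, were 2.40-fold (adjusted p = 1.18e-06) and 1.73-fold lower (adjusted p = 1.45e-05), and Sin3b, a corepressor scaffold, was 2.24-fold lower (adjusted p = 4.42e-06). Sin3a, also lower, lost its call with median scaling (adjusted p = 0.0462), with neqc (0.0177) and without any array except DAC/TSA array 1 (0.014 to 0.038). Ehmt2, also lower, lost its call with median scaling (adjusted p = 0.089). With median scaling 3 of the 13 were lower, and without both arrays numbered 1 the count was 8.

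Markers of neurons and glia were mostly without a measured probe. Of 10 neuron markers 3 were measured, of which Stmn2 was higher and Map2 and Gap43 did not pass, and their summed signal was 551 to 589 in DAC/TSA-treated and 411 to 506 in untreated cells. None of 7 astrocyte and none of 8 oligodendrocyte and Schwann cell markers had a named measured probe. Of 11 markers of lung epithelium 3 were measured, of which Aqp5, a water channel, was 4.31-fold higher and Pdpn (0.22) and Hopx (-0.08) did not pass, and no surfactant gene had a named measured probe. Of 8 general epithelial markers 6 were measured, without Cdh1 and Epcam. Among these 6 markers 5 were higher, beside 22.5% of all genes. They included Krt8 at 6.30-fold (adjusted p = 4.42e-08) and Krt18 at a bound of 3.46-fold (adjusted p = 1.56e-07). Of the 6, 4 were undetected in untreated cells, and of the 2 detected in both groups 1 was higher. The part of these cell states in the values of the neuronal genes was not tested.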

How the data were processed

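Total RNA of 6 TC-1/A9 samples, 3 per group by the sample titles and treatment labels, was read on Illumina Mouse WG-6 bead chips. The authors extracted the data with BeadStudio version 2, and the deposited signal intensity of each of 45281 probes is neither normalised nor background-corrected. A deposited detection p-value stands beside each intensity. The authors also deposited log2 values of 16148 probes, quantile-normalised with lumi and limma in R 3.0.0, which were used as an alternative and differed from the values here by at most 0.0125.

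Intensities were quantile-normalised over all probes and put on the log2 scale. Probes were removed where the detection p exceeded 0.01 on every array (17445 kept, 27836 removed). The annotation gave 13943 of them a single symbol and 7 several symbols, and 3495 are unnamed here. By Entrez identifier 13930 matched RefSeq (GRCm38.p6). Named probes stood for 9192 genes, each read by the brightest kept probe on average. Groups were compared with limma 3.58.1 in R 4.3.3 (lmFit, eBayes, two-sided, Benjamini-Hochberg over all kept probes, false discovery rate 0.01). The fit was checked on simulated data in which only probes well above the background were changed. That check does not cover changes near the detection floor or deviations shared by same-numbered arrays. Where a group was undetected, "at least" folds set each of its arrays to the higher of its own value and the lowest signal among detected probes of that array. Sequences were read with Python 3.11.15 and pandas 2.3.3, and plots drawn with matplotlib 3.10.9.

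The 10 genes and all lists were chosen with earlier results of these data known. Named were every probe of the 10 genes, up to 3 called genes of each list by size of change, and the 3 genes nearest in pattern to Uchl1 and Chrna1. Other genes were named after their values were seen. Same-numbered arrays deviated together from their group means (r of 0.63, 0.24 and 0.36 over the kept probes for numbers 1, 2 and 3). Arrays 2 and 3 also correlated across numbers (r of 0.38 for DAC/TSA 2 with untreated 3 and 0.37 for DAC/TSA 3 with untreated 2). What a number shares is not given in the sources used here, and the replicate number was fitted as a block in an alternative. Median scaling, neqc, normexp with an offset of 50, other detection filters, the mean of a gene's probes and leaving out arrays were further alternatives.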

Additional observations from a re-analysis of the deposited data

How the results depend on the processing

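The counts of 5 higher and 4 lower among the 9 neuronal genes were the same in the alternatives other than median scaling, which left 5 and 3 because Dpysl3 was not past the threshold, with ranges of 5 to 5 and 4 to 4 when 1 array was left out. Over all genes, leaving out 1 array gave 1582 to 2192 higher and 1476 to 2029 lower genes, and median scaling gave 1219 higher and 776 lower, against 2072 and 1964. Over the wider lists, leaving out 1 array gave 22 to 28 higher and 12 to 24 lower genes, against 26 and 21. The lowest count of lower genes, 12, came without DAC/TSA array 2, and 13 came without untreated array 2. Median scaling gave 8 lower genes in these lists. The cause of these shifts was not tested. With the replicate number as a block, 2706 genes were higher and 2506 lower, the wider lists had 32 higher and 28 lower, and 13 list genes gained a call and 0 lost one. The block changed no count of the 9 genes. The size of the differences of Uchl1, Thy1, Lynx1, Arc, Camk2b and Insm1 and of the dimmer Tubb2b probes depended on the background correction. With 3 arrays a group, probes of low signal and genes without a named probe could not be resolved further.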
